A study of Mus musculus with 12 samples.

Results

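The early response of mouse liver to dexamethasone (DEX) under normal oxygen was measured by poly(A) RNA sequencing of 6 libraries, chosen by their labels from the 12 libraries of a study that crossed oxygen with DEX. The Normoxia_DEX group held 3 biological replicates from C57BL/6J mice kept at 21% O2 and injected intraperitoneally with DEX at 10 mg/kg. The Normoxia_PBS group held 3 replicates from C57BL/6J mice kept at 21% O2 and injected with phosphate-buffered saline (PBS). The labels name no transgene or deletion in any group, food was freely available, and livers were sampled 2 h after the injection. The Hypoxia_DEX and Hypoxia_PBS groups, with 3 replicates each from C57BL/6J mice given the same injections after 24 h at 7% O2 and returned to 7% O2, enter 1 alternative fit, the test of the difference between oxygen levels and a look at the same genes in separate libraries. Liver is a mixed tissue, and in bulk RNA fewer cells of a type and less RNA per cell cannot be told apart.

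DEX is a synthetic ligand of the glucocorticoid receptor, a nuclear receptor that waits in the cytoplasm with heat shock chaperones and moves to the nucleus when bound. There it raises genes with glucocorticoid response elements, to which it binds as a dimer, and lowers inflammatory genes, largely by restraining NF-kB and AP-1 factors. In liver the receptor is known for raising the enzymes that make glucose and break down amino acids, for storing glycogen, and for feeding timing signals to the circadian clock. The time of day of the injections is not stated in the labels.

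The 6 libraries held 14532131 to 24715995 counts. Of 54838 gene identifiers, 12351 had at least 1 CPM (counts scaled to the library total) in at least 3 of the 6 libraries and were tested with edgeR's quasi-likelihood test. A gene is called here when its p-value, adjusted by the Benjamini-Hochberg method over all 12351 genes, is under 0.05. Levels of single genes are CPM on library sizes scaled by trimmed mean of M values. They are mean ± SD over n = 3 libraries where 1 value is given for a group, and fold changes are DEX over PBS. Summed marker levels are CPM on the library totals without that scaling. Its factors were 0.93 to 0.98 in the DEX libraries and 1.01 to 1.08 in the PBS libraries, so the sums are on another scale. A first principal component, with 83.7% of the variance, was computed over the 1000 most variable genes, and it separated the DEX from the PBS libraries. The second held 7.28% and spread the PBS libraries, with scores of 13.75 for Normoxia_PBS-1, 1.30 for Normoxia_PBS-2 and -13.52 for Normoxia_PBS-3, while the DEX libraries lay between -2.07 and 0.78. As a check of the tissue, summed markers of hepatocytes, the main cells of the liver, reached 177992 to 183131 CPM in the DEX libraries and 167811 to 172346 CPM in the PBS libraries, and none of the 18 markers was at 0.

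Within 2 h DEX changed about as many genes upward as downward. Higher levels were called for 1228 genes (9.94% of those tested) and lower levels for 1214 (9.83%). The change was at least 2-fold for 408 and 337 of them and at least 4-fold for 110 and 73. The median change was 0.70 on the log2 scale among the genes that rose and -0.69 among those that fell, against -0.01 over all genes tested. The groups did not overlap for 2440 of the 2442 called genes, and this was so for 37.2% of all genes tested. Genes that rose held 20.99% to 21.38% of all counts in the PBS libraries and 27.93% to 28.40% in the DEX libraries. For genes that fell the share was 5.25% to 5.40% in PBS and 3.04% to 3.14% in DEX. Genes picked by their direction gain or lose share partly through that choice. The albumin gene Alb made up a large part of the share of genes that rose, in PBS and in DEX libraries. Its call was lost with the replicate block, without Normoxia_PBS-1 or Normoxia_PBS-2, and on leaving out any DEX library. Abundant genes took part in the rise: 32 genes with at least 100 CPM in PBS rose 2-fold or more, and 20 such genes fell as much. In 77 of the genes that rose the PBS mean was under 1 CPM. A gene under 1 CPM in every library of 1 group passed the filter only through the other group. Without Normoxia_PBS-2, 885 genes rose and 797 fell. Counts within the gene lists below are to be set against the shares of 9.94% higher and 9.83% lower.

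**Figure D1:**
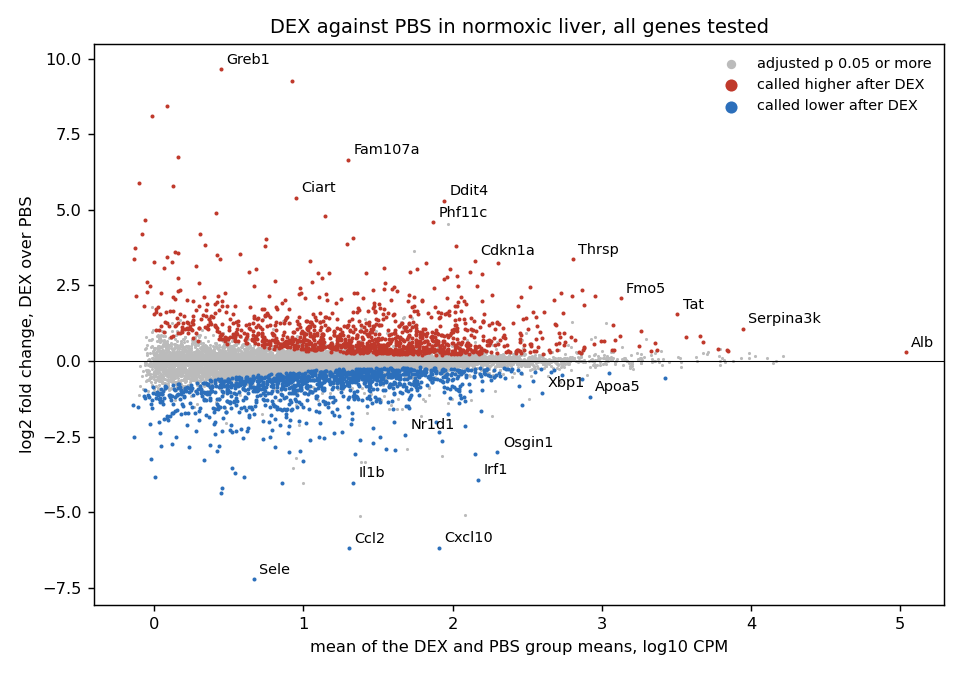
Each point is 1 of the 12351 genes tested, with its mean level (log10 CPM) on the horizontal axis and its log2 fold change, DEX over PBS, on the vertical axis. Red points are the 1228 genes called higher and blue points the 1214 called lower, and changes of both signs reach from genes near 1 CPM to genes above 1000 CPM.

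The receptor gene itself did not pass the test, and most genes of its partners did not either. Nr3c1, which encodes the glucocorticoid receptor, was at 77.3, 83.8 and 74.3 CPM in the PBS libraries and 70.9, 69.8 and 74.4 CPM in the DEX libraries, and the groups overlapped (log2 change -0.13 with an SE of 0.07, adjusted p = 0.248 in edgeR). Of 21 measured genes of the receptor, its chaperones and its coregulators, 3 rose and 1 fell, and the median was 0.03. Fkbp5, a co-chaperone that lowers the affinity of the receptor for its hormone, was at 114, 61.6 and 131 CPM in the PBS libraries and 538, 596 and 535 CPM in the DEX libraries. Its lowest DEX library was above 4 times its highest PBS library (log2 change 2.44 with an SE of 0.29, adjusted p = 0.00255 in edgeR). Dnaja1, an HSP40 co-chaperone, rose from 141 ± 6.48 CPM to 237 ± 10.7 CPM (log2 change 0.75 with an SE of 0.07, adjusted p = 9.27e-05 in edgeR). Ncoa2, a coactivator of the receptor, rose by 0.33 on the log2 scale (adjusted p = 0.0106). Nr3c2, the mineralocorticoid receptor gene, fell by 0.48 (adjusted p = 0.0394), a call lost on leaving out any DEX library, or either of Normoxia_PBS-1 and Normoxia_PBS-2. Hsd11b1, whose product regenerates active glucocorticoid inside the cell, had a log2 fold change of 0.08 (adjusted p = 0.635).

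Most textbook targets of the receptor responded. Of 37 genes known as direct targets in one tissue or another, 21 rose and 2 fell, at a median of 0.73. These were 56.8% and 5.41%, against 9.94% and 9.83% of all genes tested. The list was chosen with earlier results of these data known. Without Normoxia_PBS-1, 4 fell, and 1 fell without Normoxia_PBS-2 or on leaving out any DEX library. Ddit4 (ENSMUSG00000020108, chromosome 10, 59949669 to 59951834), which holds back the nutrient-sensing kinase mTORC1, was at 4.28, 3.95 and 4.84 CPM in the PBS libraries and 139.6, 174 and 201 CPM in the DEX libraries. All PBS values lay under 5 CPM and all DEX values above 100 CPM, a 39.5-fold rise (log2 change 5.30 with an SE of 0.16, adjusted p = 6.48e-07 in edgeR). Cdkn1a, the gene of the cell cycle inhibitor p21, was at 34.1, 20.6 and 22.3 CPM in the PBS libraries and 252, 231 and 282 CPM in the DEX libraries (log2 change 3.32 with an SE of 0.21, adjusted p = 7.5e-05 in edgeR). Tsc22d3 encodes GILZ, a leucine zipper protein that binds and restrains NF-kB. Its levels were 37.9, 52.0 and 51.8 CPM in the PBS libraries and 140.2, 185 and 179.9 CPM in the DEX libraries, with no overlap (log2 change 1.83 with an SE of 0.15, adjusted p = 0.000131 in edgeR). Lpin1, a phosphatidate phosphatase and coactivator, rose by 2.35, and Tiparp, an ADP-ribosyltransferase, by 2.48 (adjusted p = 9.13e-07 and 0.00183). Tsc22d1, a relative of GILZ, rose by 1.76 (adjusted p = 2.3e-06), and the salt-retention kinase gene Sgk1 rose from 45.1 ± 12.5 CPM to 133 ± 15.3 CPM (log2 change 1.56 with an SE of 0.22, adjusted p = 0.00364 in edgeR).

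Not every textbook target passed the test at this time. Per1, a clock gene with a well-known response element, was at 21.0, 26.0 and 33.3 CPM in the PBS libraries and 23.4, 29.2 and 23.4 CPM in the DEX libraries, and the groups overlapped (log2 change -0.07 with an SE of 0.17, adjusted p = 0.838 in edgeR). Klf9, another common marker of receptor activity, was at 174, 134 and 144 CPM in the PBS libraries and 149, 148 and 166 CPM in the DEX libraries, again with overlap (log2 change 0.04 with an SE of 0.10, adjusted p = 0.858 in edgeR). Zfp36, which encodes the mRNA-destabilising protein tristetraprolin, had a log2 fold change of -0.42 (adjusted p = 0.530), and Nfkbia, the gene of the NF-kB inhibitor IkB-alpha, one of -0.75 (adjusted p = 0.344). Both were called lower without Normoxia_PBS-1, at adjusted p = 0.00406 and 0.00139 in edgeR. The list members that fell were Gadd45a, a stress gene (log2 change -1.34, adjusted p = 0.0371), and Rgs3, a G protein regulator (log2 change -0.81, adjusted p = 0.00222). The Gadd45a call was lost on leaving out any DEX library, without Normoxia_PBS-2 and without the CPM filter.

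The receptor dimer binds a pair of short inverted repeats, so the RefSeq promoter windows (GRCm38.p6, 250 bases before to 50 after each start) were searched for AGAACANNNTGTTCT, which reads the same on both strands. Windows were at hand for 9455 of the tested genes, 12165 in all, and an exact match was rare. It was found in 2 of 12165 windows (0.0164%), 1 of 1249 windows of genes that rose and 0 of 1296 windows of genes that fell. With up to 1 mismatch among the 12 defined bases the counts were 13 (0.107%), 3 (0.24%) and 1 (0.0772%), and with up to 2 mismatches 140 (1.15%), 24 (1.92%) and 8 (0.617%). A match describes these letters in this window, and elements farther from the start were not searched. The exact match among the genes that rose stands upstream of an inner start of Sgk1 (chr10:21993681-21993735, plus strand, 189 to 175 bases before that start). It is shown with the other called genes whose upstream window holds a match with 1 mismatch: Fcgr4, an antibody receptor gene (chr1:171018717-171018771, plus strand), Pde1a, a phosphodiesterase gene (chr2:80038910-80038964, minus strand), and Plpp3, a lipid phosphatase gene (chr4:105157132-105157186, plus strand). Capitals mark the matched stretch, and all read 5′ to 3′ on the strand of the gene.
Sgk1: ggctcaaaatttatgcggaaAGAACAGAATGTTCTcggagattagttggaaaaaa
Fcgr4: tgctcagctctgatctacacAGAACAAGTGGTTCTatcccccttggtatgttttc
Pde1a: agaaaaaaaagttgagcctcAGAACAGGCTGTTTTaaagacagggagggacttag
Plpp3: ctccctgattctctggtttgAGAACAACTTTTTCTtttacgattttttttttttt
Next to these sequences, Sgk1 rose by 1.56 (adjusted p = 0.00364), Fcgr4 by 1.13 (adjusted p = 0.000587) and Pde1a by 0.94 (adjusted p = 0.00349), and Plpp3 fell by 0.45 (adjusted p = 0.00519). These 4 genes were named because of the motif and after their values were seen.

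Several of the largest rises came from genes that were nearly silent in PBS liver. Those under 1 CPM in every PBS library, such as Greb1, Fam107a and Ciart, passed the filter only through the DEX libraries. The gap between their groups is thus partly set by the filter. Greb1 (ENSMUSG00000036523, chromosome 12, 16670615 to 16800886), best known as an estrogen-induced gene, had no counts in the PBS libraries and 2.46, 9.11 and 5.12 CPM in the DEX libraries, a level at least 30.6-fold higher than a limit of 3 counts in each PBS library, which covers counting error only (edgeR adjusted p = 0.0314). That call was lost on leaving out Normoxia_DEX-3 or any PBS library, and when the CPM filter was dropped. Fam107a (ENSMUSG00000021750, chromosome 14, 8296274 to 8318023), an actin-associated stress gene, was at 0.542, 0.160 and 0.477 CPM in the PBS libraries and 33.6, 46.1 and 38.6 CPM in the DEX libraries. Every DEX library was above 30 CPM and every PBS library under 1 CPM (log2 change 6.67 with an SE of 0.25, adjusted p = 1.08e-06 in edgeR). Ciart, a repressor of the CLOCK and BMAL1 complex, was at 0.301, 0.160 and 0.818 CPM in the PBS libraries and 13.2, 20.6 and 18.2 CPM in the DEX libraries (log2 change 5.41 with an SE of 0.37, adjusted p = 5.35e-05 in edgeR). Mdm1, a centriole gene, rose by 4.80, Arl4d, a small GTPase gene, by 4.06 and Dusp14, a MAP kinase phosphatase gene, by 4.04 (adjusted p = 0.000539, 0.000142 and 6.22e-06). The aldo-keto reductase gene Akr1b7 rose by 3.88 and the secreted protease gene Adamts15 by 3.82 (adjusted p = 1.1e-05 and 7.73e-06). Sult1e1, the estrogen sulfotransferase gene, was at 0.903, 0.213 and 0.750 CPM in the PBS libraries and 3.28, 12.8 and 4.54 CPM in the DEX libraries. Normoxia_DEX-2 stood far above the other DEX libraries (log2 change 3.53 with an SE of 0.80, adjusted p = 0.0333 in edgeR), and the call was lost on leaving out any PBS library, with the replicate block and without the CPM filter.

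Neighbouring genes on chromosome 14 rose together. Setdb2 (chromosome 14, 59402009 to 59440884) encodes a histone H3 lysine 9 methyltransferase, and Phf11c (chromosome 14, 59380833 to 59395381) belongs to a family of PHD finger genes beside it. Setdb2 was at 14.8, 12.8 and 14.2 CPM in the PBS libraries and 196, 209 and 189 CPM in the DEX libraries, with little spread inside either group (log2 change 3.82 with an SE of 0.09, adjusted p = 1.61e-08 in edgeR). Phf11c was at 6.56, 5.97 and 5.04 CPM in the PBS libraries and 142, 151 and 133 CPM in the DEX libraries (log2 change 4.59 with an SE of 0.11, adjusted p = 1.61e-08 in edgeR). Of 6 genes measured in this stretch 5 rose, among them Phf11d (log2 change 1.20, adjusted p = 0.00475), Cab39l, a scaffold of the kinase LKB1 (log2 change 1.10, adjusted p = 8.26e-06), and Rcbtb1 (log2 change 0.35, adjusted p = 0.0134, a call lost without Normoxia_DEX-2 or Normoxia_DEX-3). Phf11b, with a log2 fold change of 0.58 (adjusted p = 0.262), did not pass. Phf11 genes are near copies of each other, so reads may have been shared or lost among them, and which member rose is uncertain.

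**Figure D2:**
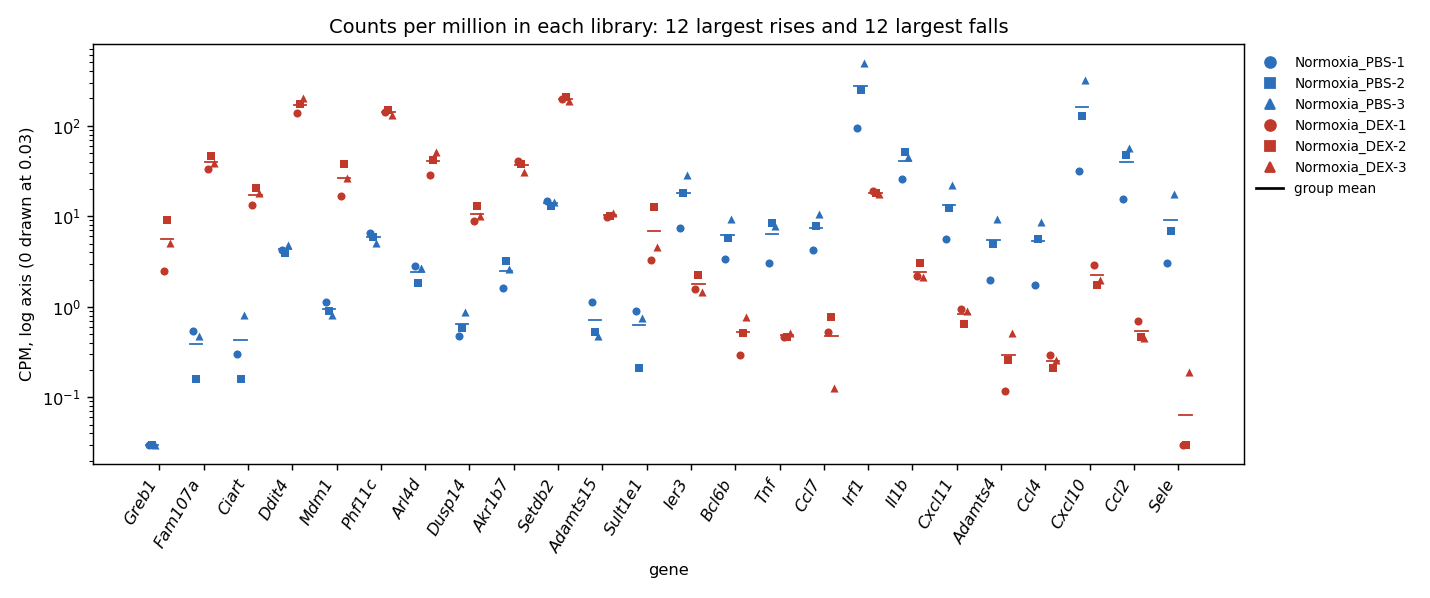
CPM (log axis) of the 12 genes that rose most and the 12 that fell most by the naming rule, 1 symbol per library and a line at each group mean. The rule takes only called genes whose groups do not overlap, so the gap between the groups is set by the choice. The DEX libraries of Irf1 lie between 17.5 and 19.2 CPM, and its PBS libraries range from 93.2 to 492 CPM.

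Brakes on inflammation moved in both directions. Of 20 measured anti-inflammatory effectors 5 rose and 3 fell, at a median of -0.20. Dusp1, a phosphatase that switches off stress kinases, was at 16.5, 17.9 and 26.9 CPM in the PBS libraries and 54.5, 94.3 and 93.6 CPM in the DEX libraries, without overlap (log2 change 1.99 with an SE of 0.30, adjusted p = 0.00828 in edgeR). The quiescence factors Klf2 and Klf4 rose by 1.30 and 1.09 (adjusted p = 0.00315 and 0.0102), as did GILZ above. Other inhibitors fell. Socs3, the feedback inhibitor of STAT3 signalling, was at 88.2, 145 and 138 CPM in the PBS libraries and 29.9, 29.3 and 32.4 CPM in the DEX libraries, without overlap (log2 change -2.02 with an SE of 0.19, adjusted p = 0.000502 in edgeR). Zfp36l1, an mRNA-destabilising protein gene, fell by 1.46 and Tnip1, a partner of the deubiquitinase A20, fell by 1.58 (adjusted p = 1.93e-05 and 0.0137). Tnip1 was not called on leaving out any DEX library or with all 12 libraries in the fit. The A20 gene Tnfaip3 was at 31.9, 142 and 285 CPM in the PBS libraries and 17.8, 17.8 and 16.7 CPM in the DEX libraries, which did not overlap and did not pass (log2 change -3.13 with an SE of 0.89, adjusted p = 0.0856 in edgeR). It was called by DESeq2 and without Normoxia_PBS-1. Without Normoxia_PBS-1, 8 of these 20 genes fell and 4 rose.

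Many chemokine and cytokine genes fell after DEX. Of 19 measured chemokine genes 8 fell and 1 rose, at a median of -1.37, and of 19 cytokine and cytokine receptor genes 9 fell and 3 rose, at -0.54. Ccl2 (ENSMUSG00000035385, chromosome 11, 82035571 to 82037453), the main attractant of monocytes, was at 15.5, 47.2 and 57.1 CPM in the PBS libraries and 0.703, 0.468 and 0.448 CPM in the DEX libraries. No DEX library reached 1 CPM (log2 change -6.20 with an SE of 0.80, adjusted p = 0.00664 in edgeR). Cxcl10, which attracts T cells, was at 31.9, 128 and 318 CPM in the PBS libraries and 2.93, 1.75 and 1.98 CPM in the DEX libraries (log2 change -6.18 with an SE of 1.18, adjusted p = 0.0305 in edgeR). The PBS libraries of Cxcl10 were far apart, and its call was lost without Normoxia_PBS-2, on leaving out any DEX library, with the replicate block and without the CPM filter. Il1b, the gene of interleukin-1 beta, was at 25.7, 51.4 and 45.1 CPM in the PBS libraries and 2.17, 3.06 and 2.11 CPM in the DEX libraries (log2 change -4.02 with an SE of 0.34, adjusted p = 0.000599 in edgeR), and its call held in every alternative run. Tnf, the gene of tumour necrosis factor, was at 3.07, 8.37 and 7.84 CPM in the PBS libraries and 0.469, 0.468 and 0.512 CPM in the DEX libraries (log2 change -3.72 with an SE of 0.46, adjusted p = 0.000961 in edgeR), and its call held likewise. Ccl7, another monocyte attractant, fell by 3.85 (adjusted p = 0.00208), and the macrophage growth factor gene Csf1 fell by 2.72 (adjusted p = 0.00932, lost without Normoxia_DEX-2).

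Receptors for these signals went the other way in part. Il6ra, the interleukin-6 receptor gene, was at 122, 103 and 123 CPM in the PBS libraries and 265, 297 and 273 CPM in the DEX libraries, without overlap (log2 change 1.27 with an SE of 0.09, adjusted p = 1.59e-05 in edgeR). Il1r1, the interleukin-1 receptor gene, rose from 158 ± 18.7 CPM to 286 ± 28.1 CPM (log2 change 0.86 with an SE of 0.11, adjusted p = 0.000361 in edgeR). Tnfrsf1b, the gene of the second TNF receptor, rose by 0.58 (adjusted p = 0.000690). The chemokine that rose was Ccl6, by 0.52 (adjusted p = 0.0217), a call lost without Normoxia_DEX-1, Normoxia_DEX-2, Normoxia_PBS-2 or Normoxia_PBS-3. Chemokine genes that fell numbered 4 without Normoxia_DEX-2, 5 without Normoxia_DEX-3 and 11 by DESeq2. Cxcl1 and Cxcl2, attractants of neutrophils, had log2 fold changes of -1.82 and -4.04 and did not pass (adjusted p = 0.0509 and 0.0675). Both were called by DESeq2, with the replicate block and without Normoxia_PBS-1, and Cxcl1 also with all 12 libraries in the fit.

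Targets of NF-kB fell from an uneven PBS baseline. Of 22 measured factors and targets 12 fell and 1 rose, at a median of -1.71. Sele, the endothelial adhesion molecule E-selectin, was at 3.07, 6.93 and 17.6 CPM in the PBS libraries and 0, 0 and 0.192 CPM in the DEX libraries. It held 439 counts in the PBS libraries and 3 in the DEX libraries, a ratio of 164 with a 95% exact interval of 55.9 to 800.2 that covers counting error only and not the spread between libraries (edgeR adjusted p = 0.0209). Irf1, an interferon and NF-kB target that is itself a transcription factor, was at 93.2, 246 and 492 CPM in the PBS libraries and 19.2, 17.9 and 17.5 CPM in the DEX libraries (log2 change -3.93 with an SE of 0.72, adjusted p = 0.0260 in edgeR). Icam1, an adhesion molecule of leukocyte traffic, was at 85.0, 242 and 436 CPM in the PBS libraries and 33.2, 29.9 and 26.3 CPM in the DEX libraries (log2 change -3.09 with an SE of 0.68, adjusted p = 0.0435 in edgeR). In both genes the DEX libraries lay close together and the PBS libraries were spread widely. Cd83, an activation marker of antigen-presenting cells, was at 14.6, 15.8 and 12.6 CPM in the PBS libraries, which lay close together. In the DEX libraries it was at 2.52, 1.62 and 1.15 CPM (log2 change -3.02 with an SE of 0.22, adjusted p = 1.98e-05 in edgeR). Vcam1, an adhesion molecule, was the member that rose, by 0.75 (adjusted p = 0.00992). In 21 of the 22 genes Normoxia_PBS-1 was the lowest PBS library (95.5%, against 34.4% of all genes tested). Without Normoxia_PBS-1, 20 of the 22 fell. Without Normoxia_PBS-2, Normoxia_DEX-1 or Normoxia_DEX-3, 4 fell, and 5 fell without Normoxia_DEX-2 or with all 12 libraries in the fit. The Sele, Irf1 and Icam1 calls were lost without Normoxia_PBS-2 or any 1 of the DEX libraries, and the Icam1 call also without Normoxia_PBS-3. The Irf1 and Icam1 calls were lost with the replicate block, the Sele and Icam1 calls without the CPM filter, and the Icam1 and Vcam1 calls with all 12 libraries in the fit.

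Some interferon genes and most immediate early genes fell too. Of 27 interferon-stimulated genes 9 fell and 1 rose, at a median of -0.28, and of 19 GTPases induced by interferon-gamma 6 fell and 0 rose by edgeR. DESeq2 had 0 higher as well, and 0 were higher at an unadjusted p under 0.05. Mx1, an antiviral GTPase gene, fell by 1.58 and Gbp4 fell by 1.59 (adjusted p = 0.000899 and 0.000105). Usp18, the protease that removes ISG15 and damps interferon signalling, was the member that rose. It was at 11.4, 12.8 and 13.1 CPM in the PBS libraries and 47.7, 90.1 and 67.8 CPM in the DEX libraries, without overlap (log2 change 2.46 with an SE of 0.25, adjusted p = 0.00112 in edgeR). Without Normoxia_DEX-1 or Normoxia_PBS-2, 5 of the interferon-stimulated genes fell. The GTPases that fell numbered 10 without Normoxia_PBS-1. Of 18 immediate early genes, which growth and stress signals switch on within minutes, 14 fell and 1 rose, at a median of -1.20, and 10 fell with all 12 libraries in the fit. In 15 of the 18 Normoxia_PBS-1 was the lowest PBS library (83.3%, against 34.4% of all genes tested). Ier5 fell by 2.63, Egr1 fell by 1.25, Atf3 fell by 1.76, and the AP-1 subunit genes Junb and Jun fell by 1.64 and fell by 0.80 (adjusted p = 7.77e-05, 0.00108, 0.00826, 0.0123 and 0.00707). The Junb call was lost without Normoxia_PBS-2 and without the CPM filter, and the Atf3 call with all 12 libraries in the fit. Fos, another AP-1 subunit gene, had a log2 fold change of -0.23 (adjusted p = 0.442). Myc, the growth-promoting transcription factor gene, rose instead. It was at 6.08, 5.07 and 6.07 CPM in the PBS libraries and 30.5, 25.7 and 12.7 CPM in the DEX libraries (log2 change 2.01 with an SE of 0.35, adjusted p = 0.0113 in edgeR), and the call was lost without Normoxia_PBS-2, without Normoxia_PBS-3 and without the CPM filter.

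**Figure D3:**
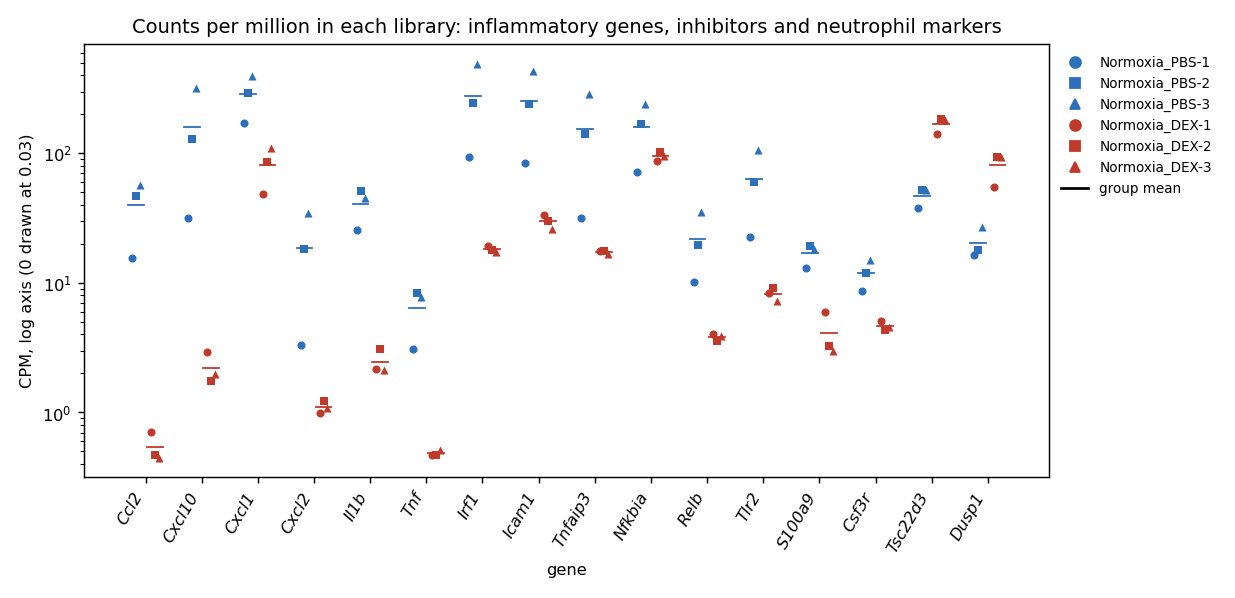
CPM (log axis) in each library for chemokine, cytokine and NF-kB genes, neutrophil markers (S100a9, Csf3r) and the inhibitors Tsc22d3 and Dusp1, with a line at each group mean. Normoxia_PBS-1 (blue circles) is the lowest PBS library for all 16 genes. The DEX libraries lie above the PBS libraries for Tsc22d3 and Dusp1, overlap them for Nfkbia and lie below them for the other genes.

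Neutrophil transcripts were lower in the same libraries. Of 12 neutrophil markers 6 were measured and 5 of these fell, at a median of -1.88. The measured marker that did not fall was Mmp8 (log2 change 0.02, adjusted p = 0.973 in edgeR). Normoxia_PBS-1 was the lowest PBS library for all 6 (100%, against 34.4% of all genes tested). Summed over all 12, the markers reached 11.5 to 20.2 CPM in the DEX libraries and 35.8 to 55.6 CPM in the PBS libraries, and none was at 0 in all 6 libraries. S100a9, a calcium-binding protein of neutrophils and monocytes, was at 13.1, 19.3 and 18.3 CPM in the PBS libraries and 5.97, 3.24 and 3.01 CPM in the DEX libraries, without overlap (log2 change -2.06 with an SE of 0.27, adjusted p = 0.00179 in edgeR). Its partner S100a8 fell by 1.99, the chemokine receptor gene Cxcr2 fell by 2.12 and the G-CSF receptor gene Csf3r fell by 1.34 (adjusted p = 0.00799, 0.00174 and 0.00109). With all 12 libraries in the fit, 2 of the 6 were called, and S100a8 and S100a9 were among those that were not. The part of neutrophils in the falls of chemokines, cytokines and NF-kB targets was not tested. Kupffer cells are the macrophages resident in liver, and of their 15 markers 0 rose and 1 fell by edgeR. The counts were 1 higher and 2 lower at an unadjusted p under 0.05, and 1 higher and 0 lower by DESeq2. Their sum was 702 to 1022 CPM in the DEX libraries and 712 to 966 CPM in the PBS libraries, with overlap. The largest change of the list was in Cd163, at 33.5, 33.6 and 21.4 CPM in the PBS libraries and 57.9, 86.7 and 44.4 CPM in the DEX libraries. It did not pass (log2 change 1.10 with an SE of 0.31, adjusted p = 0.0707 in edgeR). Cd163 was called by DESeq2, with all 12 libraries in the fit, with the replicate block and without Normoxia_DEX-3. The marker that fell was Lyz2, the lysozyme gene (log2 change -0.33, adjusted p = 0.0485), a call lost without Normoxia_DEX-1, Normoxia_DEX-3, Normoxia_PBS-1 or Normoxia_PBS-2, by DESeq2 and with all 12 libraries in the fit. Summed lymphocyte markers were 24.4 to 32.1 CPM in the DEX libraries and 39.1 to 49.6 CPM in the PBS libraries, without overlap. Only 2 of 15 were measured, and edgeR and DESeq2 called 0 of them, with 2 lower at an unadjusted p under 0.05.

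The circadian clock was split. Of 9 measured clock repressors 2 rose and 4 fell, and of 11 activators and output genes 4 rose and 1 fell. Cry2, a core repressor, was at 13.2, 12.4 and 11.9 CPM in the PBS libraries and 57.8, 71.4 and 68.5 CPM in the DEX libraries, without overlap (log2 change 2.40 with an SE of 0.10, adjusted p = 7.31e-07 in edgeR). Nr1d1, which encodes the heme-sensing repressor REV-ERB-alpha, went the other way, at 81.9, 73.9 and 88.1 CPM in the PBS libraries and 11.7, 17.5 and 15.7 CPM in the DEX libraries (log2 change -2.44 with an SE of 0.14, adjusted p = 1.16e-05 in edgeR). Bhlhe40, another repressor, fell by 1.31, and Per3 fell by 1.45 (adjusted p = 0.00325 and 0.00476). Usp2, a ubiquitin protease of clock output, rose by 2.76 (adjusted p = 0.00220), Rora, an activator, by 0.93 (adjusted p = 0.000242) and Hlf, a PAR-bZIP factor, by 0.84 (adjusted p = 0.000175). Dbp, a PAR-bZIP factor that cycles strongly, fell by 2.35 (adjusted p = 0.0125), a call lost on leaving out any DEX library. Arntl, which encodes BMAL1, had a log2 fold change of -0.24 (adjusted p = 0.579), with overlap between the groups.

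Several growth brakes rose, and insulin pathway genes moved both ways. Of 18 genes that restrain mTORC1 or report on it 7 rose and 1 fell, at a median of 0.02. These were 38.9% and 5.56%, against 9.94% and 9.83% of all genes tested. At an unadjusted edgeR p under 0.05, 8 were higher and 6 lower. Besides Ddit4, Trib3 rose by 1.20 (adjusted p = 0.00196), Klf15, a transcription factor of fasting, by 1.07 (adjusted p = 6.83e-05), and Sesn1, a sestrin, by 1.07 (adjusted p = 9.27e-05). Deptor, the member that fell, changed by -0.22 (adjusted p = 0.0453) and was called under none of the 12 alternatives. Of 23 insulin and IGF genes 4 rose and 4 fell, at a median of -0.02, and 2 fell without Normoxia_DEX-1 or Normoxia_DEX-3. The forkhead factors Foxo1 and Foxo3, which insulin holds out of the nucleus, rose by 1.20 and 1.25 (adjusted p = 5.58e-05 and 0.00126). Foxo1 was at 37.0, 29.3 and 37.2 CPM in the PBS libraries and 76.0, 87.1 and 74.6 CPM in the DEX libraries, without overlap. Igfbp1, a binding protein of IGF-1, was at 324, 287 and 481 CPM in the PBS libraries and 880.4, 538 and 1255 CPM in the DEX libraries and did not pass (log2 change 1.29 with an SE of 0.38, adjusted p = 0.0755 in edgeR). It was called by DESeq2, with the replicate block and without Normoxia_DEX-2. Irs2, the main insulin receptor substrate of liver, was at 65.9, 90.2 and 113 CPM in the PBS libraries and 58.3, 38.2 and 51.2 CPM in the DEX libraries and did not pass either (log2 change -0.87 with an SE of 0.24, adjusted p = 0.0583 in edgeR). It was called by DESeq2, with all 12 libraries in the fit and without Normoxia_PBS-1.

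Cell cycle genes moved in both directions. Of 24 measured genes of the cell cycle and its arrest 8 rose and 5 fell, and 3 fell without Normoxia_PBS-2 or on leaving out any DEX library. Trp53inp1, a p53-induced stress gene, was at 96.5, 98.6 and 128 CPM in the PBS libraries and 415, 492 and 486 CPM in the DEX libraries, without overlap (log2 change 2.11 with an SE of 0.13, adjusted p = 7.2e-06 in edgeR). The cyclin G2 gene Ccng2, a target of FOXO factors, rose by 1.63 (adjusted p = 0.000254) and Ccnd1, the gene of cyclin D1, by 1.26 (adjusted p = 0.00143). Ccnd2 (cyclin D2) fell by 0.96 and the polo-like kinase gene Plk2 fell by 1.30 (adjusted p = 0.000159 and 0.000683). Socs2, a feedback inhibitor of growth hormone signalling, was at 72.2, 66.7 and 66.9 CPM in the PBS libraries and 73.0, 48.8 and 27.7 CPM in the DEX libraries, with overlap (log2 change -0.46 with an SE of 0.35, adjusted p = 0.455 in edgeR).

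Of 25 measured genes of gluconeogenesis and glycogen 7 rose and 1 fell, and Pck1 and G6pc did not pass. The list stood at a median of 0.12. Pck1, which encodes PEPCK, was at 1802, 956 and 1710.3 CPM in the PBS libraries and 2351, 2234 and 2819 CPM in the DEX libraries. The groups did not overlap, but the gene did not pass (log2 change 0.73 with an SE of 0.25, adjusted p = 0.0932 in edgeR), although it was called by DESeq2, with all 12 libraries in the fit, with the replicate block and without Normoxia_PBS-2. G6pc, the glucose-6-phosphatase catalytic subunit gene, was at 74.7, 26.4 and 24.1 CPM in the PBS libraries and 21.8, 14.4 and 41.8 CPM in the DEX libraries, with overlap (log2 change -0.70 with an SE of 0.68, adjusted p = 0.569 in edgeR). Ppp1r3b and Ppp1r3c, which target protein phosphatase 1 to glycogen, rose by 1.64 and 1.61 (adjusted p = 0.00250 and 0.0103), and the Ppp1r3c call was lost with the replicate block. Slc37a4, the glucose-6-phosphate transporter of the endoplasmic reticulum, rose by 0.69 (adjusted p = 0.000713) and Pcx, the pyruvate carboxylase gene, by 0.52 (adjusted p = 0.00113). Crtc2, a CREB coactivator of gluconeogenesis, fell by 0.77 (adjusted p = 0.000104).

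Several enzymes and carriers of amino acid breakdown rose. Of 37 measured genes 10 rose and 1 fell, at a median of 0.10. Tat, the tyrosine aminotransferase gene and a classical target of the receptor, was at 1164, 1283 and 2437 CPM in the PBS libraries and 4614, 4614 and 5095 CPM in the DEX libraries. Normoxia_PBS-3 was the highest PBS library by far (log2 change 1.55 with an SE of 0.30, adjusted p = 0.0159 in edgeR), and the call was lost without Normoxia_DEX-2, Normoxia_DEX-3 or Normoxia_PBS-2 and without the CPM filter. Slc25a15, the mitochondrial ornithine carrier, was at 283, 301 and 398 CPM in the PBS libraries and 1040.0, 1369 and 1163 CPM in the DEX libraries, without overlap (log2 change 1.86 with an SE of 0.15, adjusted p = 6.76e-05 in edgeR). Tdo2, which opens the tryptophan ring, rose from 1229 ± 348 CPM to 2422 ± 255 CPM (log2 change 0.98 with an SE of 0.19, adjusted p = 0.0106 in edgeR). Slc38a2, an amino acid importer, rose by 1.19 (adjusted p = 0.00201), Got1, an aspartate aminotransferase gene, by 0.97 (adjusted p = 0.0208), lost without the CPM filter and on leaving out Normoxia_PBS-1 or Normoxia_PBS-2, and Gpt2, an alanine aminotransferase gene, by 0.92 (adjusted p = 0.000485). Sds, the serine dehydratase gene, rose by 1.63 (adjusted p = 0.0223), a call lost without Normoxia_PBS-2, on leaving out any DEX library and without the CPM filter. Nags, whose product makes the activator of the urea cycle, fell by 0.57 (adjusted p = 0.00255). In 37 of the 37 genes Normoxia_PBS-3 was the highest PBS library, against 4540 of all 12351 genes tested. Without Normoxia_PBS-3, 19 of them rose, and without Normoxia_PBS-2, 6.

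Lipid droplet and triglyceride genes were among those that rose. Of 28 measured genes of lipogenesis and triglycerides 7 rose and 2 fell, at a median of 0.04. These were 25% and 7.14%, against 9.94% and 9.83% of all genes tested. Thrsp, a nuclear protein that promotes lipogenesis, was at 65.3, 118 and 156 CPM in the PBS libraries and 1101, 1166 and 1236 CPM in the DEX libraries. All DEX libraries stood far above all PBS libraries (log2 change 3.37 with an SE of 0.34, adjusted p = 0.00153 in edgeR). The perilipin genes Plin4 and Plin5, which coat lipid droplets, were at 8.73, 7.20 and 5.79 CPM in the PBS libraries and 60.1, 67.0 and 57.7 CPM in the DEX libraries for Plin4 and 47.0, 38.5 and 47.1 CPM in the PBS libraries and 231, 254 and 262 CPM in the DEX libraries for Plin5. Neither gene showed overlap, and the log2 fold changes were 3.08 (adjusted p = 1.08e-06) and 2.50 (adjusted p = 7.31e-07). Plin2, another droplet coat gene, went the other way without passing, at 764, 326 and 288 CPM in the PBS libraries and 195, 203 and 173 CPM in the DEX libraries, without overlap (log2 change -1.27 with an SE of 0.42, adjusted p = 0.112 in edgeR). It was called lower by DESeq2, with all 12 libraries in the fit and without Normoxia_PBS-1. Without Normoxia_PBS-1, 4 genes of the list fell, and 1 fell without Normoxia_DEX-1, Normoxia_DEX-2 or Normoxia_PBS-2. Pnpla3, a droplet lipase gene, rose by 2.66 (adjusted p = 0.00464). Srebf1, the master factor of fatty acid synthesis, fell by 0.76 (adjusted p = 0.0227), a call lost with all 12 libraries in the fit, without Normoxia_PBS-2 and on leaving out any DEX library. Of 29 fatty acid oxidation genes 2 rose and 2 fell, 6.90% each, under the 9.94% and 9.83% of all genes tested. Without Normoxia_PBS-1, 6 rose, and none rose without Normoxia_DEX-2, Normoxia_DEX-3 or Normoxia_PBS-2. Insig2, which holds SREBP factors in the endoplasmic reticulum, was at 229.9, 158 and 163 CPM in the PBS libraries and 808, 737 and 1106 CPM in the DEX libraries, without overlap (log2 change 2.27 with an SE of 0.21, adjusted p = 0.000411 in edgeR), while 2 of 25 cholesterol genes rose and 2 fell. The cholesterol counts were 8% each way, also under the shares over all genes tested. Without Normoxia_DEX-1, 5 cholesterol genes fell, and without Normoxia_DEX-2, 4. Apoa5, an apolipoprotein that lowers plasma triglyceride, fell by 1.18 (adjusted p = 0.00135).

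Several genes of drug metabolism rose, among them cytochromes and the enzymes that serve them. Of 33 measured genes 12 rose (36.4%, against 9.94% of all genes tested) and 2 fell, at a median of 0.38. Cyp2b10, a phenobarbital-inducible cytochrome, was at 24.9, 43.8 and 48.0 CPM in the PBS libraries and 325, 465 and 306 CPM in the DEX libraries, without overlap (log2 change 3.23 with an SE of 0.32, adjusted p = 0.00146 in edgeR). Cyp2b genes are close copies, so some reads may belong to a neighbour. Alas1, the first enzyme of heme synthesis, was at 340.2, 349.6 and 317 CPM in the PBS libraries and 1605, 1711 and 1114 CPM in the DEX libraries (log2 change 2.14 with an SE of 0.15, adjusted p = 3.66e-05 in edgeR). Fmo5, a flavin monooxygenase gene, was at 411, 511 and 609.9 CPM in the PBS libraries and 2063, 2357 and 2075 CPM in the DEX libraries (log2 change 2.08 with an SE of 0.14, adjusted p = 1.62e-05 in edgeR). Both genes were without overlap. Por, which passes electrons to all microsomal cytochromes, rose by 1.22 (adjusted p = 1.13e-05) and Ahr, the dioxin receptor gene, by 1.32 (adjusted p = 1.62e-05). Nr1i3, which encodes the constitutive androstane receptor, fell by 0.64 (adjusted p = 0.0255), a call lost on leaving out any DEX library and with the replicate block. No gene of this list fell on leaving out any DEX library, and 1 fell without Normoxia_PBS-1 or Normoxia_PBS-3.

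Acute phase proteins, which liver secretes in inflammation, included genes that rose while the cytokines fell. Of 24 measured genes 7 rose and 1 fell, at a median of 0.10. Orm3, an orosomucoid gene, was at 19.6, 22.2 and 32.4 CPM in the PBS libraries and 70.8, 127 and 104 CPM in the DEX libraries (log2 change 2.03 with an SE of 0.29, adjusted p = 0.00694 in edgeR). Serpina3m, a serine protease inhibitor, rose by 1.18 (adjusted p = 0.000215), and Hp, haptoglobin, rose from 3747 ± 577 CPM to 5809 ± 96.1 CPM (log2 change 0.63 with an SE of 0.11, adjusted p = 0.00320 in edgeR). Lcn2, the iron-siderophore trap lipocalin 2, was at 95.5, 169 and 312 CPM in the PBS libraries and 762, 769 and 779 CPM in the DEX libraries. The DEX libraries lay close together (log2 change 2.00 with an SE of 0.45, adjusted p = 0.0395 in edgeR), and the call was lost without Normoxia_PBS-2, on leaving out any DEX library and without the CPM filter. Saa1, serum amyloid A, had a log2 fold change of 0.47 and Saa3 one of -1.17, and neither passed (adjusted p = 0.219 and 0.454), while Saa1 was called without Normoxia_PBS-3. Serpina3 and orosomucoid genes form families of close copies, so their split is uncertain. The metallothionein genes Mt1 and Mt2, which buffer zinc, rose by 0.66 and 0.68 (adjusted p = 0.00206 and 0.0107).

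In amount of transcript, the 6 called genes that gained most CPM were Alb, Serpina3k, Tat, Cyp3a11, Hp and Mug1. Serpina3k rose from 5684 ± 1198 CPM to 11922 ± 1603 CPM (log2 change 1.07 with an SE of 0.16, adjusted p = 0.00166 in edgeR), and Cyp3a11, the main bile acid and drug hydroxylase of mouse liver, from 3279 ± 189 CPM to 5887 ± 776 CPM (log2 change 0.84 with an SE of 0.11, adjusted p = 0.000557 in edgeR). Mug1, a murinoglobulin protease inhibitor, rose by 0.79 (adjusted p = 0.00183). Alb, albumin, rose by 0.29 (adjusted p = 0.0461), a call lost with the replicate block and without Normoxia_PBS-1, Normoxia_PBS-2 or any 1 of the DEX libraries. Among those that lost most were Apoa5, Osgin1, Rnase4, Nat8f2 and Xbp1, of which Rnase4 was not called without Normoxia_DEX-1, without Normoxia_DEX-3 or with all 12 libraries in the fit. Osgin1, an oxidative stress response gene, was at 399.8, 419.5 and 248 CPM in the PBS libraries and 51.4, 28.5 and 51.6 CPM in the DEX libraries, without overlap (log2 change -3.03 with an SE of 0.34, adjusted p = 0.00284 in edgeR). Xbp1, the transcription factor of the secretory stress response, was at 487, 549.7 and 565 CPM in the PBS libraries and 296, 239 and 241 CPM in the DEX libraries, without overlap (log2 change -1.05 with an SE of 0.11, adjusted p = 0.000111 in edgeR).

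**Figure D4:**
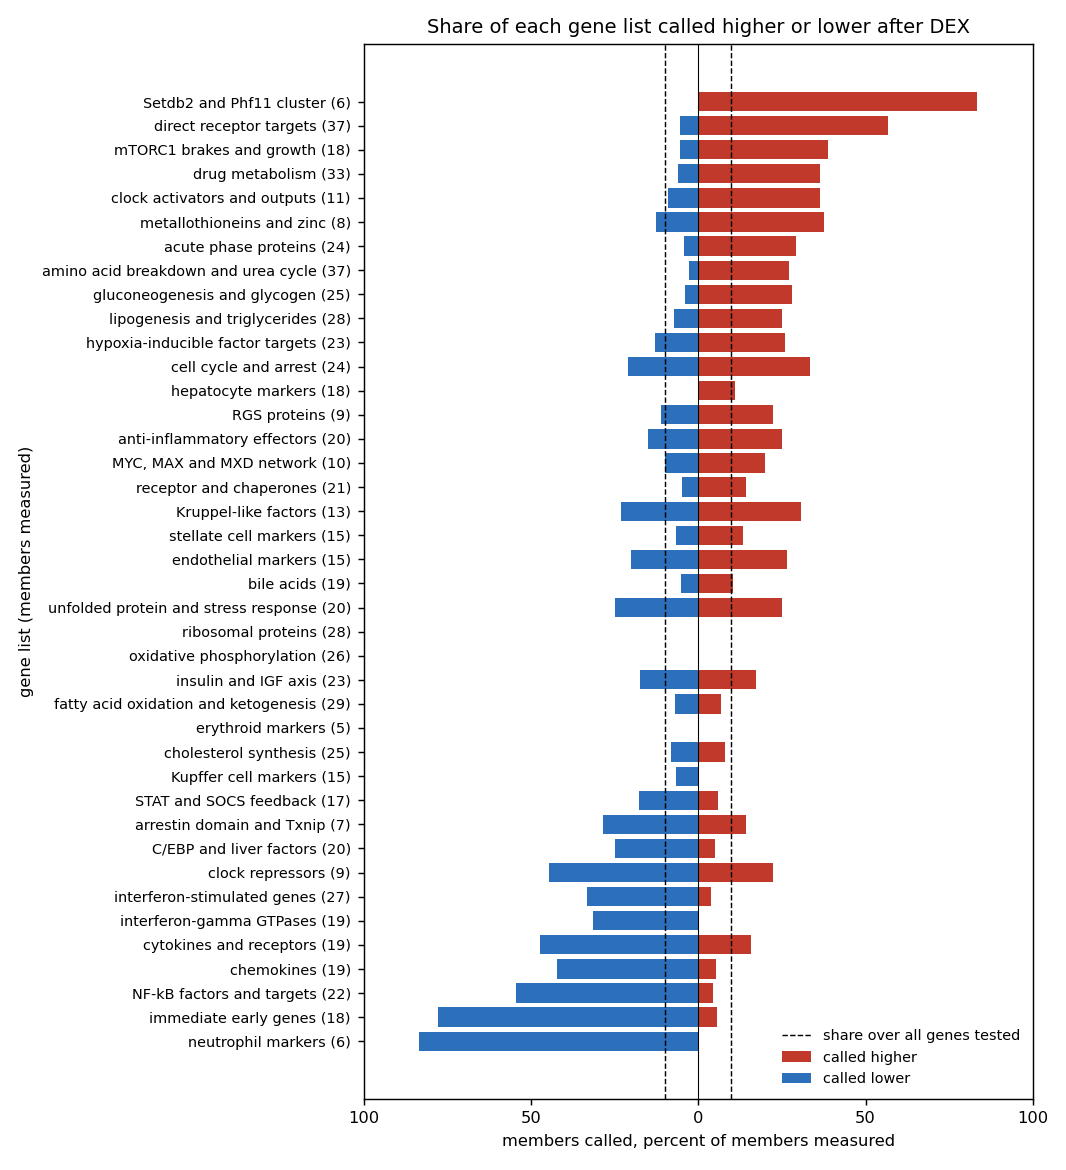
Share of the measured members of each gene list called higher (red, to the right) or lower (blue, to the left) after DEX, in percent, for lists with at least 5 measured members. Dashed lines mark the shares over all genes tested, 9.94% higher and 9.83% lower. To the right, the Setdb2 and Phf11 cluster (6 measured) reaches 83.3% and direct receptor targets 56.8%. To the left, neutrophil markers (6 measured) reach 83.3% and immediate early genes 77.8%. Ribosomal and oxidative phosphorylation genes show no bar.

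Ribosomal and respiratory chain genes were not called. Of 28 ribosomal protein genes and 26 genes of oxidative phosphorylation, edgeR and DESeq2 called 0. At an unadjusted p under 0.05 there were 0 ribosomal genes and 1 respiratory gene, which was higher. Their medians were 0.06 and 0.07, and their fold changes lay between -0.06 and 0.16 on the log2 scale. Endothelial markers, which line the sinusoids, moved both ways, with 4 higher and 3 lower of 15, and 2 higher without Normoxia_DEX-2 or Normoxia_PBS-2. Lyve1, a hyaluronan receptor of sinusoidal endothelium, was at 11.6, 10.2 and 11.4 CPM in the PBS libraries and 53.8, 67.7 and 51.7 CPM in the DEX libraries, without overlap (log2 change 2.38 with an SE of 0.12, adjusted p = 1.84e-06 in edgeR). Kdr, the VEGF receptor gene, was at 88.0, 81.8 and 76.2 CPM in the PBS libraries and 35.3, 41.2 and 36.5 CPM in the DEX libraries, also without overlap (log2 change -1.12 with an SE of 0.09, adjusted p = 2.28e-05 in edgeR). Summed over the list the endothelial markers reached 713 to 786 CPM in the DEX libraries and 746 to 846 CPM in the PBS libraries, and none was at 0. Markers of stellate cells reached 613 to 674 CPM in the DEX libraries and 545 to 664 CPM in the PBS libraries, with 2 higher and 1 lower of 15, none higher without Normoxia_PBS-1 or Normoxia_PBS-2, 1 higher without Normoxia_DEX-1 or Normoxia_DEX-2 and 5 higher without Normoxia_PBS-3. Of 9 cholangiocyte markers 3 were measured and 1, the transcription factor gene Sox9, fell (log2 change -1.51, adjusted p = 0.00199). Their sum was 32.2 to 39.6 CPM in the DEX libraries and 48.0 to 74.3 CPM in the PBS libraries, without overlap.

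The same genes were then looked up in the hypoxia libraries, which share no library with the normoxia comparison. In their own fit of the 12351 genes DEX raised 614 (4.97%) and lowered 596 (4.83%) at 7% O2. Of the 1228 genes that rose in normoxia 438 also rose in hypoxia, which is 35.7% of the normoxia set and 71.3% of the hypoxia set. Of the 1214 that fell, 335 also fell, 27.6% of the normoxia set and 56.2% of the hypoxia set. The other way round were 7 and 1 genes. The sign was the same for 88.9% of the genes that rose and 93.0% of those that fell, against 48.0% and 52.0% of all genes with that sign. Hypoxia_DEX-1 and Hypoxia_DEX-3 differed far less than other replicates (1.79 chi-square units per gene, against 10.54 to 22.10 among the normoxia pairs). With those 2 summed into 1 library the shared genes numbered 235 and 128.

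Among genes shared in this way were Phf11c, Setdb2 and Fam107a. Phf11c had a log2 fold change of 4.20 in hypoxia (adjusted p = 1.84e-05) and Setdb2 one of 3.50 (adjusted p = 2.66e-05). Fam107a had one of 4.42 (adjusted p = 0.000754). Il1b fell by 2.72 there (adjusted p = 0.0288), and Ccl2, with a log2 fold change of -3.40, did not pass (adjusted p = 0.113). Because the genes were picked by their normoxia values, smaller changes in hypoxia are no result by themselves. The difference between the responses, tested in 1 model of all 12 libraries, was called for 177 genes (1.43%), or 71 with the near-identical pair summed and 65 to 301 on leaving out 1 library.

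**Figure D5:**
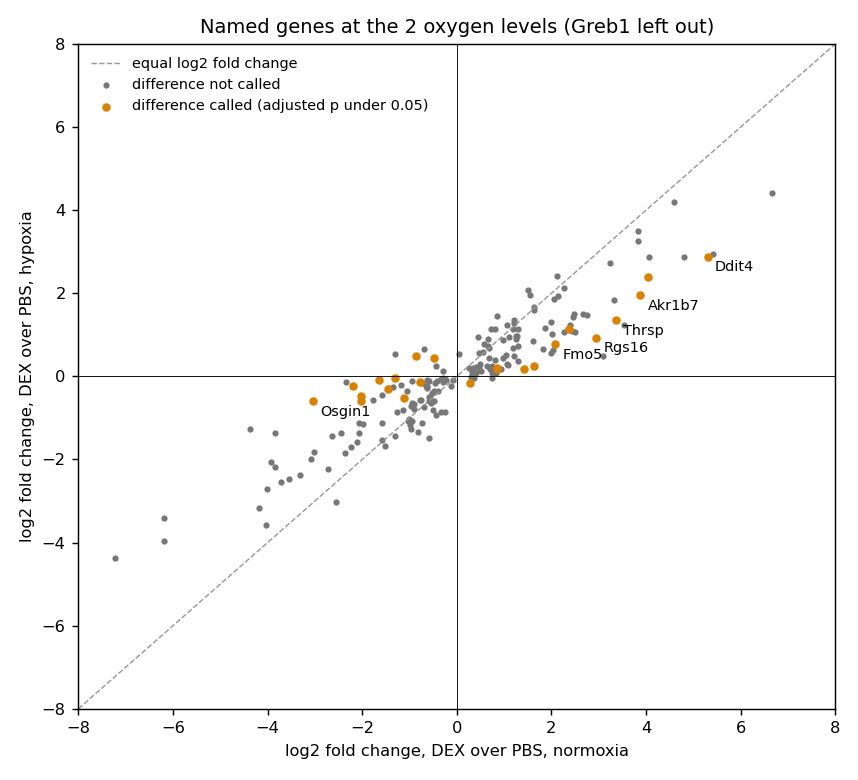
Log2 fold change, DEX over PBS, in normoxia (horizontal axis) and in hypoxia (vertical axis) for the genes named by the rule, without Greb1. Orange points are the genes whose responses differ by the test of the difference, among them Ddit4 with 5.30 in normoxia and 2.88 in hypoxia, and the dashed line marks equal responses.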

How the data were processed

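HISAT2 2.0.4, featureCounts, DESeq2, Trimmomatic and SAMtools, and the build mm10, are listed without roles per the submitters' processing notes. Which annotation was counted, and whether by strand, is not given in the sources used here, so overlapping and antisense genes can share reads. Per the labels' protocols the libraries came from a stranded mRNA kit. The authors' deposited table held raw counts per gene, whole and not normalized, for 54838 identifiers, 54723 with a symbol. Positions are from GENCODE M21 on the same build, GRCm38. The labels' protocol calls both oxygen arms hypoxia, and the groups were taken from the sample descriptions.

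The counts of the 6 normoxia libraries were filtered (at least 1 CPM in at least 3 libraries), scaled by TMM and fitted in edgeR 4.0.16 (R 4.3.3) with estimateDisp, glmQLFit (robust) and glmQLFTest, 1 mean per group. Adjusted p-values use Benjamini-Hochberg over 12351 genes, and SE is the log2 fold change divided by the root of F. The difference of DEX responses was tested over all 12 libraries. Code was tested on simulated data. Alternatives were DESeq2 1.42.0, RLE scaling, 2 other filters, all 12 libraries in the fit, the replicate number as a block and leaving out each library.

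The 43 gene lists, with 804 genes of which 720 were tested, and the naming rule were chosen with earlier results of these data known, and lists get counts and medians only. Named genes are the 12 with the largest change each way (called, no overlap, a group mean of 5 CPM or more), the 6 largest gains and losses in CPM, up to 4 called members per list and direction, and a fixed set of 16. Genes with clone, predicted, Mup or immunoglobulin names were left out, and a few genes that the rule names are not reported here. Beyond that, 49 genes were added after their values were seen: the motif genes, genes that did not pass and further list members such as Lpin1, Got1, Por and Junb. Promoter sequences are RefSeq's (GRCm38.p6). The series' design text calls the replicates biological without naming animals, so p-values measure the spread between these samples. Figures were drawn with matplotlib.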

Additional observations from a re-analysis of the deposited data

Results flagged for a closer look

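For 27 of the 245 genes checked the DEX response differed between oxygen levels by the test of the difference itself, over all 12 libraries (edgeR adjusted p under 0.05, against 177 genes or 1.43% of all tested). Most of the 245 were picked by their change in normoxia, and 152 of the 177 were called there, so the larger share is no result about them. With the near-identical Hypoxia_DEX pair summed the difference was still called for 13 of the 27: Ddit4, Rgs16, Sgk1, Tsc22d1, Ahr, Fmo5, Lyve1, Gadd45g, Crtc2, Bhlhe40, Egr1, Mnt and Klf10. Values are the log2 response in normoxia minus that in hypoxia, and no explanation was tested. Of the 27 values, 15 were above 0. Among receptor targets and growth brakes these were Ddit4 (2.40), Sgk1 (1.56), Tsc22d1 (1.41) and Gadd45g (1.22). Metabolic genes in this group were Thrsp (2.00), Akr1b7 (1.91), Ppp1r3b (1.38), Fmo5 (1.28), Ahr (1.36) and Cyp3a11 (0.64). The signalling genes Rgs16 (1.99) and Dusp14 (1.62), the endothelial gene Lyve1 (1.23) and the clock genes Hlf (0.61) and Clock (0.43) complete it.

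The other 12 were below 0. Genes of signalling feedback and stress were Osgin1 (-2.45), Klf10 (-1.99), Mnt (-1.58), Egr1 (-1.57), Socs3 (-1.57), Ddit3 (-1.45) and Zfp36l1 (-1.17). The others were Irs2 (-1.38), Bhlhe40 (-1.28), Nr3c2 (-0.95), Crtc2 (-0.67) and Kdr (-0.63). Irs2 and Osgin1 were not called with the pair summed (adjusted p = 0.0746 and 0.0584 in edgeR). Irs2 had a log2 fold change of -0.87 in normoxia and 0.49 in hypoxia, with PBS values of 211, 226 and 196 CPM and DEX values of 277, 322 and 289 CPM at 7% O2. Osgin1 was at 220.4, 165 and 287 CPM in hypoxia PBS and 146, 143 and 156 CPM in hypoxia DEX.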

How the results depend on the processing

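Counts of genes called in normoxia stayed within 1.5 times under DESeq2, RLE scaling, both other filters, all 12 libraries in the fit and the replicate block (1148 higher and 1086 lower). Leaving out 1 library gave 885 to 1219 higher and 797 to 1196 lower genes, lowest without Normoxia_PBS-2. Same-numbered DEX and PBS libraries deviated from their group means with correlations of -0.0061, -0.0132 and 0.0644. Not every library correlated best with its own number. These values show no pairing by number, and with 3 libraries per group they cannot exclude one. Of the 215 called genes among the 245 checked, 139 were called under every alternative, and none changed sign with a call. Without Normoxia_PBS-1, 16 of the 245 lost a call and 11 gained one, and without Normoxia_DEX-2, 47 and 1. Fewer samples enter those fits, and the cause was not tested.

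In hypoxia the pair summed gave 270 higher and 180 lower genes, the replicate block 929 lower, and leaving out 1 library 257 to 951 higher and 168 to 1054 lower. For the difference of responses the pair summed gave 71 genes and leaving out 1 library 65 to 301. The share of promoters of risen genes with the motif was 0.0801% exact, 0.24% with 1 and 1.92% with 2 mismatches. Where a group holds few counts, as for Sele or Greb1, depth limits the size of the change.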

Other observations

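The secretory stress response moved both ways, with 5 of 20 measured genes higher and 5 lower. Without Normoxia_DEX-3, 2 were higher, and 3 were higher without Normoxia_DEX-1, Normoxia_DEX-2, Normoxia_PBS-2 or Normoxia_PBS-3. Herpud1, which helps remove misfolded proteins from the endoplasmic reticulum, was at 505, 478 and 363 CPM in the PBS libraries and 770.1, 821 and 766 CPM in the DEX libraries (log2 change 0.81 with an SE of 0.12, adjusted p = 0.00117 in edgeR). Ddit3, which encodes the stress factor CHOP, was at 8.79, 8.75 and 10.9 CPM in the PBS libraries and 1.88, 2.94 and 2.05 CPM in the DEX libraries (log2 change -2.02 with an SE of 0.19, adjusted p = 7.66e-05 in edgeR). Neither gene showed overlap between the groups.

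Among subunits and known targets of hypoxia-inducible factors, at normal oxygen, 6 of 23 rose and 3 fell. These were 26.1% and 13%, against 9.94% and 9.83% of all genes tested. Log2 fold changes in this list ran from -5.13 to 2.26, and the gene with the lowest was not called. Bnip3, a mitophagy receptor gene, was at 131, 119 and 124 CPM in the PBS libraries and 229.8, 279.7 and 263 CPM in the DEX libraries (log2 change 1.04 with an SE of 0.09, adjusted p = 4.29e-05 in edgeR). Hif3a, an inhibitory HIF subunit gene, rose by 2.26 (adjusted p = 0.00179) and Ndrg1 by 0.74 (adjusted p = 0.000106). Hif3a was near the filter limit, at 0.383 ± 0.244 CPM in PBS and 1.84 ± 0.0995 CPM in DEX. G0s2, an inhibitor of triglyceride lipase, was at 39.9, 4.00 and 4.09 CPM in the PBS libraries and 1.82, 1.62 and 1.79 CPM in the DEX libraries and did not pass (log2 change -3.20 with an SE of 1.31, adjusted p = 0.188 in edgeR). It was called without Normoxia_PBS-1, and its fold change is the lowest of the lipogenesis and triglyceride list. The falls of the targets Egln3 and Vegfa and of the subunit gene Hif1a were not called without Normoxia_PBS-2 or on leaving out any DEX library. Liver transcription factors showed 5 falls and 1 rise among 20 genes, or 3 falls without Normoxia_DEX-1 or Normoxia_DEX-3, with Onecut2 at 159, 152 and 149.9 CPM in the PBS libraries and 76.5, 63.1 and 70.1 CPM in the DEX libraries (log2 change -1.14 with an SE of 0.08, adjusted p = 1.69e-05 in edgeR) and Prox1 with a log2 fold change of -0.98 (adjusted p = 0.000172).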
